A study of Homo sapiens with 19 samples.

Results

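The genes described here are 10 chemokines that attract T cells, B cells, dendritic cells and monocytes: CCL5, CCL13, CCL17, CCL18, CCL19, CCL22, CXCL10, CXCL11, CXCL13 and CXCL14. They were found by the gene name printed on the array for non-control probes, whatever their values, and all 10 were present among 31033 gene names, with 12 of 50238 probes. CCL13 and CXCL11 had 2 probes each and the other members had 1. A member is described by its brightest probe, the one with the highest mean signal, and the second probe is given where it differs. Chemokines are small secreted proteins that bind G protein-coupled receptors on leukocytes and steer them along gradients. In macrophages several of them are switched on by NF-kappaB, by interferons through IRF factors, or by IL-4 through STAT6, so that different members mark different kinds of activation. CXCL13 and CCL19 are best known from lymphoid tissue, where they draw B cells through CXCR5 and T cells and dendritic cells through CCR7.

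The cells were THP-1, a human monocytic leukemia line, so all arrays stem from 1 line and carry no variation between donors. All cells, controls included, had been differentiated into macrophage-like cells with 30 nM PMA and rested before time 0. One arm then received 0.1 mM vitamin C (vit C) while the other was left untreated (UT), and separate flasks were lysed after 8, 24, 48 and 96 h. Total RNA was read on 19 single-colour arrays from Agilent. In order of time, 2, 3, 2 and 3 of them held UT cells and 3, 2, 2 and 2 held vit C-treated cells. The unit throughout is the normalized log2 signal, which is the log2 of the scanner's processed signal minus the 75th percentile of that array, so a difference of 1 is a 2-fold difference and levels of different probes cannot be set against each other. A gene passed the test when a probe differed by at least 1 on this log2 scale and its limma p, adjusted by Benjamini-Hochberg over all genes tested and written q, was at most 0.05. Where the probes of a gene went in opposite directions the gene was not tested.

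Between 57.5% and 72.8% of probes per array were well above background by the scanner's own mark. Of 8 macrophage markers 6 were well above background on all 19 arrays, while MRC1, the mannose receptor, was on none. Of 6 T cell markers, CD3D, CD28 and TRAT1 were well above background on none, while CD3E was on all 19, CD2 on 11 and CD3G on 3. The arrays lay on 4 slides, and no UT array shared a slide with a vit C array of the same time point. A fit with the slide as a block could therefore set the arms against each other only through the UT arrays of 96 h, which lay on 2 slides. Both vit C arrays of 96 h lay on a slide of their own, so slide and treatment, and in the vit C arm slide and time, cannot be told apart there. Those arrays also had the highest 75th percentiles, 787 and 902 against 625 at most elsewhere. The median change of all probes at 96 h was -0.14 under the 75th percentile, -0.03 under quantile normalization and -0.45 after normexp background correction. At that time point 21.4% of the called genes were higher in vit C cells, but 56.2% were under quantile normalization, while the brightest probe of each member that passed at 96 h kept its direction there. Among the members, the third UT array of 96 h stood apart from the other UT arrays of that time in CCL5, CXCL10 and CXCL14, and values without it are given below.

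The members were unequally detectable. CCL5, CCL19, CXCL13 and CXCL14 were well above background on all 19 arrays, CXCL10 on 18 and CCL17 on 17. CXCL11 was well above background on 11 arrays, CCL13 on 10, CCL18 on 2 and CCL22 on none. The probes are 60 bases long, and the first 30 bases are printed here for the members on which the results turn. Their positions in the transcripts were not determined. The printed stretch of CCL19 repeats tgtgag, and the specificity of the probes was not tested.

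CCL5: agatgagctaggatggagagtccttgaacc
CCL17: aagaagagccacagtgagggagatcccatc
CCL19: agtgtgagtgtgagcgagagggtgagtgtg
CXCL13: caagaggcaaaggaatccatgtagtagata
CXCL14: gtggtacaacgcctggaacgagaagcgcag
CXCL11, brighter probe: taagaaaggctggttaccatcggagtttac
CXCL11, dimmer probe: tgagaaagcctccataatgtacccaagtaa

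Set against UT cells, 3 members were lower with vit C at 48 h, where 1.55% of all genes were. At 96 h 5 were lower, where 10.1% of all genes were, and 3 were higher, where 2.74% were. None passed the test at 8 or 24 h, and all of these calls were lost under the methods' t-test. CXCL13, CCL19 and CCL5 were lower than in UT cells at both later time points, though CXCL13 rose over time in both arms. CCL17 and CXCL11 were lower at 96 h, and CXCL14, CCL18 and the dimmer probe of CCL13 were higher there. Of these, CXCL11, CCL18 and CCL13 were near background, and with signals floored at 20 the changes of CXCL11 and CCL18 were -0.13 and 0. CXCL10 and CCL22 passed the test in no comparison between vit C and UT cells. The comparison asked which of these attractants vit C changed in macrophage-like cells that met no microbe. In RNA from whole flasks, fewer cells that make a transcript and less of it per cell cannot be told apart.

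**Figure D1:**
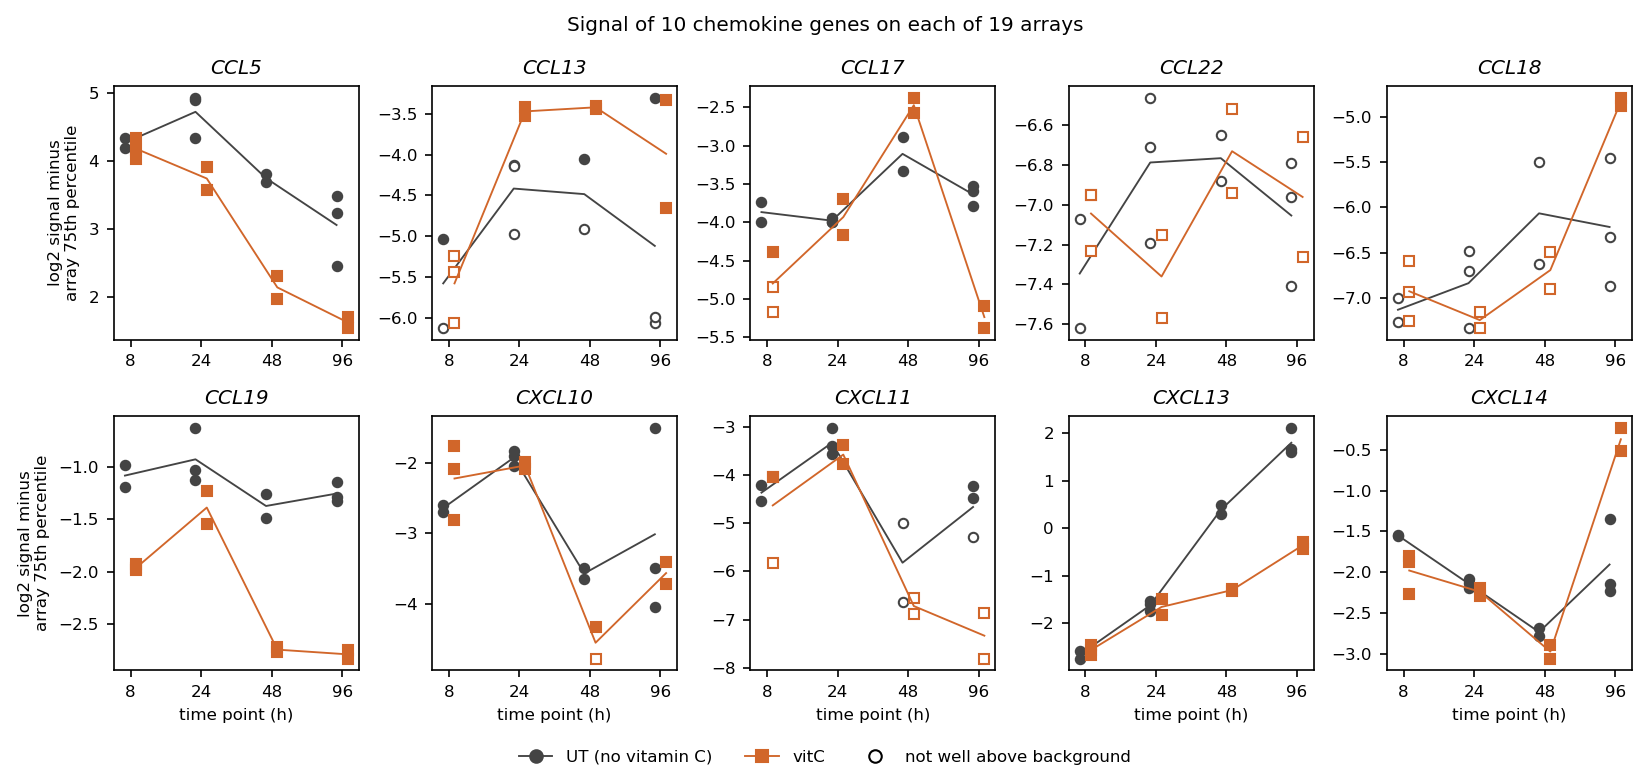
Normalized log2 signal (log2 processed signal minus the 75th percentile of the array) of the brightest probe of each member on each array, against time point in h. Circles are UT and squares vit C arrays, lines join group means, open symbols were not well above background, and each panel has its own vertical range. In CXCL13 the UT arrays climb to between 1.61 and 2.11 at 96 h while the vit C arrays stay below 0, and in CCL18 and CCL22 most symbols are open.

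At 8 h no member passed the test, where 0.553% of all genes tested did. None passed at 24 h either, against 1.68% of all genes. CXCL11 was not tested at 8 and 48 h because its probes went in opposite directions. Without adjustment, 2 members at 8 h and 3 at 24 h had a limma p under 0.05. At 48 h 3 members passed, all of them lower, where 3.65% of all genes passed in either direction and 1.55% were lower. At 96 h 8 members passed, where 12.8% of all genes did. Of these, 5 members were lower, where 10.1% of all genes were, and 3 were higher, where 2.74% were. The methods' t-test called 0 members at all 4 time points after Benjamini-Hochberg adjustment, so the 3 and the 8 calls were lost under it, and without adjustment it called 0, 1, 3 and 7 in order of time. Among genes read above background by at least 1 probe throughout a group, the shares at 96 h were 2.34% lower and 3.69% higher. The calls among dim probes thus ran mostly downwards at 96 h. In order of time the median change of the members was -0.04, -0.18, -0.77 and -0.99. Over all gene names it was -0.05, -0.13, -0.02 and -0.15. The arrays of both arms were fully apart for 3, 3, 7 and 7 of the 10 members. Among all gene names they were fully apart for 39%, 30.3%, 50.7% and 36.9%.

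**Figure D2:**
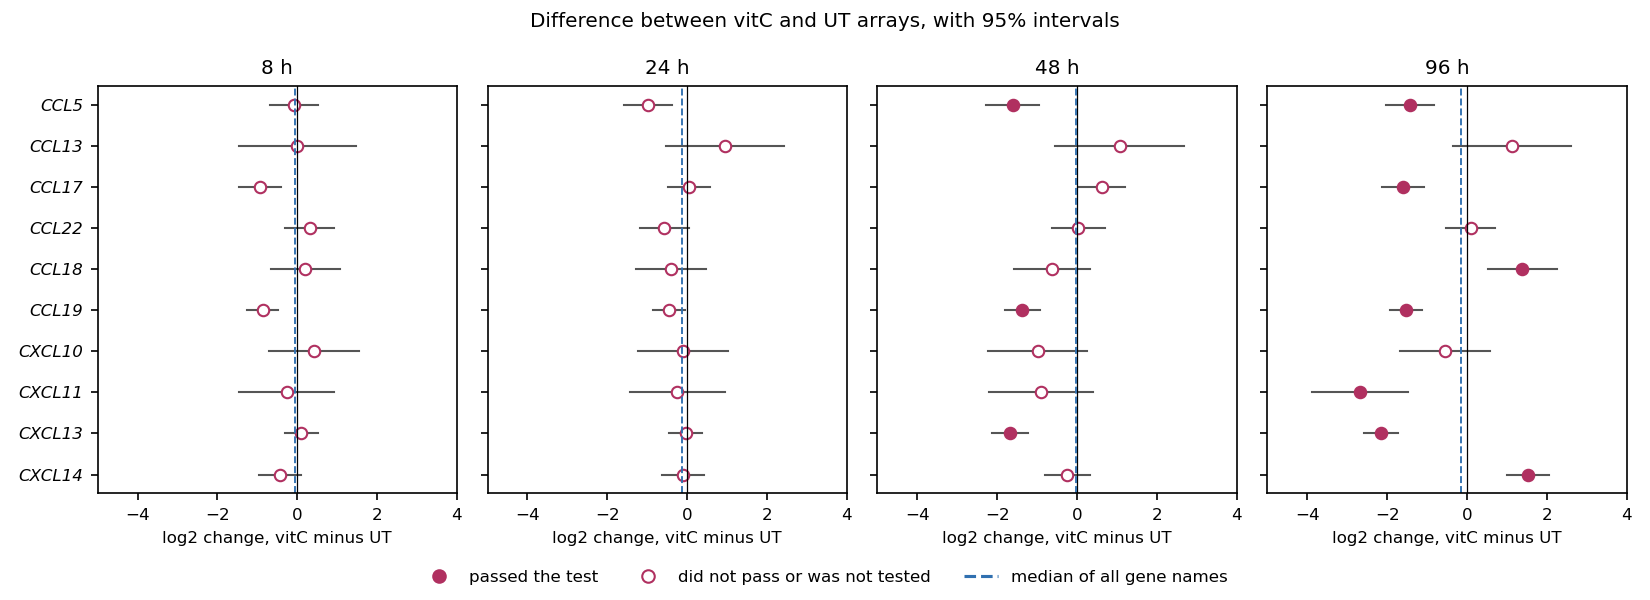
Change with vit C at each time point, as the mean of the vit C arrays minus that of the UT arrays on the log2 scale, for the brightest probe of each member. Bars are 95% intervals of the limma fit, filled circles passed the test, and the dashed line is the median of all gene names. At 48 h the filled circles lie at -1.37 to -1.68, and at 96 h they lie on both sides of 0.

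CXCL13, the B cell attractant that binds CXCR5, climbed steeply in UT cells and much less in vit C cells. In UT cells its signal was -2.58 and -2.74 at 8 h, -1.75, -1.52 and -1.59 at 24 h, 0.29 and 0.48 at 48 h, and 1.67, 1.61 and 2.11 at 96 h. Its vit C signal was -2.45, -2.67 and -2.56 at 8 h, -1.83 and -1.48 at 24 h, -1.32 and -1.28 at 48 h, and -0.28 and -0.44 at 96 h. The arms overlapped at 8 and 24 h, and from 48 h every UT array lay above every vit C array. In UT cells it rose by 1.04 from 8 to 24 h (standard error 0.19, q = 0.00844), by 3.04 from 8 to 48 h (0.21, q = 5.72e-07) and by 4.46 from 8 to 96 h (0.19, q = 6.94e-09), a 22-fold change. From 8 h, 1.37% of all genes rose at 24 h in UT cells, 5.53% at 48 h and 8.9% at 96 h. The vit C arm differed from its own 8 h level by 0.90 at 24 h (q = 0.0106), under the fold threshold, and CXCL13 rose there by 1.26 at 48 h (q = 0.000356) and by 2.20 at 96 h (q = 1.32e-06). After normexp background correction the step to 48 h was 0.87, under the fold threshold. Of all genes 8.15% and 10.9% rose in these steps. The UT call at 24 h was lost without either UT array of 8 h or the second of 24 h. Every UT array up to 48 h lay on 1 slide, which also held the first of 96 h, and within it the difference from 8 to 96 h was 4.33. The steps over time share their 8 h arrays and are given side by side only.

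Set against UT cells, vit C cells differed in CXCL13 by 0.10 at 8 h (standard error 0.19) and by -0.04 at 24 h (0.19). At 48 h CXCL13 was lower by 1.68 with vit C (0.21, limma q = 0.00093), a 3.21-fold lower signal. At 96 h it was lower by 2.16 (0.19, limma q = 2.99e-05), which is 4.46-fold. The 4 vit C changes differed from each other in the F test (limma q = 0.00205), which 1.37% of all genes passed. In the order of group means, UT at 96 h (1.80 ± 0.28, SD, n = 3) stood first, followed by UT at 48 h (0.38 ± 0.13, n = 2), vit C at 96 h (-0.36 ± 0.11, n = 2) and vit C at 48 h (-1.30 ± 0.03, n = 2). The 24 h groups (-1.62 ± 0.12 in UT, n = 3, and -1.65 ± 0.24 in vit C, n = 2) overlapped, and so did the 8 h groups at the bottom. With the slide as a block the change at 48 h was -1.88 with q = 0.0653. In the 2 slides that held UT arrays of 96 h, CXCL13 differed by 0.19.

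CCL19, a ligand of CCR7, was steady in UT cells and was lower in vit C cells at the later time points. Its UT signal was -0.98 and -1.19 at 8 h, -0.63, -1.13 and -1.03 at 24 h, -1.49 and -1.26 at 48 h, and -1.29, -1.33 and -1.15 at 96 h. The vit C arrays read -1.93, -1.97 and -1.99 at 8 h, -1.55 and -1.23 at 24 h, -2.77 and -2.72 at 48 h, and -2.83 and -2.75 at 96 h. At every time point all vit C arrays lay below all UT arrays, closest at 24 h. The change with vit C was -0.87 at 8 h (limma q = 0.0606) and -0.46 at 24 h (limma q = 0.236), and neither passed the test. CCL19 fell by 1.37 at 48 h (standard error 0.21, limma q = 0.00291) and by 1.53 at 96 h (0.19, limma q = 0.000296), which are 2.59-fold and 2.90-fold lower signals. Over the 4 time points together its change was -1.06 (0.10, q = 1.56e-05), where 1.42% of all genes were called lower, and -0.77 after normexp background correction, under the fold threshold. The F test did not separate the 4 changes of CCL19 (q = 0.137). With the slide as a block its change at 48 h was -1.44 with q = 0.157, after normexp background correction it was -0.80 with q = 0.0187, under the fold threshold, and the UT arrays of 96 h differed by 0.05 between their 2 slides.

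CCR7, the receptor of CCL19, moved the other way at 48 h. Its normalized log2 signal was 0.49 ± 0.15 (SD, n = 2) in UT cells and 1.94 ± 0.06 (n = 2) in vit C cells, a rise of 1.45 (standard error 0.21, limma q = 0.00218). At 96 h CCR7 differed by -0.17 (limma q = 0.6). CCR7 is also 1 of the 5 dendritic cell markers examined, whose summed linear signal, relative to the 75th percentile of the array, was 2.65 to 2.96 in UT and 5.15 to 5.29 in vit C cells at 48 h. That sum holds CCR7 itself, which was the 1 marker of the list that passed at 48 h. At 96 h the sum was 1.06 to 1.67 in UT and 2.27 to 2.55 in vit C cells, where CD1C rose by 1.92 (q = 0.000269), and CLEC9A, well above background on no array, passed as lower (-1.22, q = 0.0311). The median change of the 5 at 96 h was -0.20. Of the 8 macrophage markers, ITGAM, the integrin chain CD11b, was lower with vit C at 48 h by 1.17 (standard error 0.18, q = 0.00335). CCL19, CCL5 and CXCL13 were lower at that time too, and LYZ was higher at 96 h by 1.17 (q = 0.042). The summed macrophage signal was 353 to 370 in UT and 385 to 410 in vit C cells at 48 h. That of 5 B cell markers, none of which passed between the arms at any time point, was 1.87 to 2.57 in UT and 3.70 to 5.03 in vit C cells at 48 h, and 1.46 to 2.16 against 3.54 to 3.99 at 8 h. Of these, CD79A and PAX5 were well above background on all 19 arrays, and MS4A1 on 1. The part of these markers in the changes of CCL19, CCL5, CXCL13 and CCR7 was not tested. CXCR5, the receptor of CXCL13, was not analysed here.

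CXCL13 and CCL19 were both lower with vit C than in UT cells at 48 and 96 h, so their promoter windows are printed here. These run from 250 bases before to 50 bases after the start site in RefSeq (GRCh38.p14). The CCL19 window lies at chr9:34691227-34691526 on the minus strand, and CXCL13 has 2 start sites, with windows at chr4:77511503-77511802 and chr4:77605570-77605869, both on the plus strand. Windows were searched on both strands for the interferon-stimulated response element GAAANNGAAA, the GAS element TTCNNNGAA, the STAT6 element TTCNNNNGAA and the kappaB consensus, and any match is in capitals. None of these windows held a match, which says only that these letters do not occur in them.

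CCL19: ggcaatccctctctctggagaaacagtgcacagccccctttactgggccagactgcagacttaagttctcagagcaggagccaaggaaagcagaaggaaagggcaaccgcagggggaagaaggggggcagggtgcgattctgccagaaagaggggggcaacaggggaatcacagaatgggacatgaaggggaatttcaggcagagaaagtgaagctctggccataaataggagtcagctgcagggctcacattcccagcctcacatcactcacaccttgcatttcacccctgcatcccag
CXCL13, first start site: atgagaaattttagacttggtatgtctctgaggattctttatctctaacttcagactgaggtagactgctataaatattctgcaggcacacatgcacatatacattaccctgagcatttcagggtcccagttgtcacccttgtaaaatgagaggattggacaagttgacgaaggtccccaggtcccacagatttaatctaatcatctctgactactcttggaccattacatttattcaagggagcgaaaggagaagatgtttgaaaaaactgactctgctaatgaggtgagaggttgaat
CXCL13, second start site: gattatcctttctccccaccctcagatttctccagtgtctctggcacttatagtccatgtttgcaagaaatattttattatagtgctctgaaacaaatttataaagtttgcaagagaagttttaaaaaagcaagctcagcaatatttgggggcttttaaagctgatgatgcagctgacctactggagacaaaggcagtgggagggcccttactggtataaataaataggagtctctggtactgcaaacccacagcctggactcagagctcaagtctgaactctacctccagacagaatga

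CCL5, also called RANTES, binds CCR1 and CCR3, among others, and draws T cells and monocytes. Its signal in UT cells was 4.19 and 4.34 at 8 h, 4.34, 4.89 and 4.93 at 24 h, 3.69 and 3.80 at 48 h, and 3.23, 3.49 and 2.45 at 96 h. With vit C it was 4.16, 4.03 and 4.34 at 8 h, 3.91 and 3.57 at 24 h, 2.31 and 1.97 at 48 h, and 1.71 and 1.54 at 96 h. Only the 8 h arrays of the arms overlapped, and both arms were lowest at 96 h. The change with vit C was -0.09 at 8 h (limma q = 0.908) and -0.98 at 24 h (limma q = 0.0954). CCL5 fell by 1.61 at 48 h (standard error 0.31, limma q = 0.0118) and by 1.43 at 96 h (0.28, limma q = 0.00881), which are 3.05-fold and 2.70-fold lower signals. Without the third UT array of 96 h, at 2.45, the change at 96 h was -1.73 (limma q = 0.000691). CCL5 lost the call at 48 h when any array of that time except the first vit C array was left out (q = 0.0632 to 0.105), and at 96 h when either vit C array was (q = 0.0644 and 0.102). With the slide as a block the change at 48 h was -1.18 with q = 0.56.

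Over time CCL5 moved down in both arms. In UT cells it fell by 1.21 from 8 to 96 h (standard error 0.28, q = 0.00627), where 7.19% of all genes fell, but by 0.91 without the third UT array, which is under the fold threshold, and the call was also lost without the second UT array of 8 h. The vit C arm fell by 2.04 from 8 to 48 h (0.28, q = 0.000135) and by 2.55 from 8 to 96 h (0.28, q = 1.06e-05), where 4.98% and 18% of all genes fell. Averaged over the 4 time points the change of CCL5 with vit C was -1.03 (0.14, q = 0.000431), just past the fold threshold, where 1.42% of all genes were called lower. That call was lost under quantile normalization (-0.96), with the percentile over probes well above background (-0.98), and without the second UT array of 96 h or the second vit C array of 24 or 48 h. Of its receptors, CCR1 differed by 0.65 at 96 h (q = 0.14), and at 8 and 48 h its probes went in opposite directions, as those of CCR3 did at all 4 time points, so these were not tested.

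CCL17 and CCL22 are ligands of CCR4, the receptor of Th2 and regulatory T cells, and lie close together on chromosome 16 with 1 protein-coding gene between them. CCL17 in UT cells was -3.73 and -4.00 at 8 h, -3.94, -4.00 and -3.99 at 24 h, -3.33 and -2.88 at 48 h, and -3.78, -3.59 and -3.53 at 96 h. The vit C signal read -5.17, -4.84 and -4.38 at 8 h, -3.70 and -4.16 at 24 h, -2.37 and -2.57 at 48 h, and -5.09 and -5.38 at 96 h. The vit C arrays thus lay below the UT arrays at 8 and 96 h, on either side of them at 24 h and above them at 48 h. The change with vit C was -0.93 at 8 h (limma q = 0.107), then 0.05 at 24 h (q = 0.922) and 0.63 at 48 h (q = 0.246). At 96 h CCL17 fell by 1.60 (standard error 0.24, limma q = 0.00162), a 3.04-fold lower signal. The 4 changes differed from each other in the F test (q = 0.0222), a call that was lost without either vit C array of 96 h, without the first array of either arm at 48 h, after normexp background correction and with the replicate block. Within vit C cells CCL17 rose by 2.33 from 8 to 48 h (0.24, q = 1.11e-05), though only 1 of the 3 vit C arrays of 8 h was well above background, and after normexp background correction this step was 0.94, under the fold threshold. Among UT cells the same step was 0.76 (q = 0.0919). After normexp background correction the 96 h change of CCL17 was -1.0 (q = 0.002), just under the fold threshold, and with signals floored at 20 it was -0.91.

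CCL22 was well above background on none of the 19 arrays, with signals between -7.62 and -6.46. No fold is given for it, and a change below this detection limit could not have been seen. Its neighbour CCL17 was the CCR4 ligand that these arrays could measure.

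CXCL10 and CXCL11 are interferon-inducible ligands of CXCR3, the receptor of activated Th1 and cytotoxic T cells, and are next to each other on chromosome 4 with no protein-coding gene between them. CXCL10 in UT cells was -2.59 and -2.69 at 8 h, -1.90, -1.83 and -2.04 at 24 h, -3.65 and -3.49 at 48 h, and -3.49, -4.05 and -1.50 at 96 h. The vit C arrays gave -1.76, -2.09 and -2.81 at 8 h, -1.99 and -2.08 at 24 h, -4.33 and -4.78 at 48 h, and -3.72 and -3.41 at 96 h. The arms overlapped at every time point except 48 h, where both vit C arrays were lower. In order of time its change with vit C was 0.42, -0.11, -0.98 and -0.55, and limma q lay between 0.452 and 0.916. At 48 h the 95% interval ran from -2.22 to 0.25 and at 96 h from -1.68 to 0.57, so changes of over 2-fold lie inside both. The third UT array of 96 h stood above the other two, and without it the change at 96 h was 0.20. Over time CXCL10 fell in vit C cells by 2.33 from 8 to 48 h (standard error 0.53, q = 0.00649), a call that was lost without the second vit C array of 48 h, after normexp background correction (-0.75, q = 0.0805) and with the slide as a block (-2.11, q = 0.0725), while the same step in UT cells was -0.93 (q = 0.336).

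CXCL11 was dimmer. In UT cells its brighter probe read -4.53 and -4.20 at 8 h, -3.02, -3.40 and -3.57 at 24 h, -5.0 and -6.64 at 48 h, and -4.47, -5.29 and -4.23 at 96 h. With vit C it read -4.03, -4.03 and -5.83 at 8 h, -3.78 and -3.37 at 24 h, -6.89 and -6.55 at 48 h, and -7.81 and -6.86 at 96 h. The arms separated at 96 h, where 2 of 3 UT arrays and no vit C array were well above background. There the fitted change was -2.68 (standard error 0.56, limma q = 0.0125), and -1.06 after normexp background correction. Against the lowest signals of any probe well above background on the vit C arrays, the fall was 2.35-fold under the reported processing. The dimmer probe differed by -1.99 (limma q = 0.03), with no array of either group well above background. At this time point probes at background also passed as lower, among them those of the T cell markers CD28 (-1.41) and CD3D (-1.09), and the part of this in the fall of CXCL11 was not tested. Without the first vit C array of 96 h the change was -2.20 (limma q = 0.0909), and with signals floored at 20 it was -0.13. At 8 and 48 h the probes of CXCL11 went in opposite directions and the gene was not tested. At 24 h its change was -0.25 (q = 0.813). Averaged over the 4 time points the fitted change was -1.02 (q = 0.0309), but -0.92 (q = 0.0609) under quantile normalization, -0.34 after normexp background correction and -0.05 with signals floored at 20, and from -0.82 to -1.23 with an array left out. From 8 to 96 h the vit C arm of CXCL11 fell by a fitted 2.71 (q = 0.00229), with a bound of 2.4-fold under the reported processing. After normexp background correction this difference was -1.15, and the call was lost with signals floored at 20. From 8 to 48 h its fitted difference was -2.09 (q = 0.0176), but no vit C array of 48 h was well above background and no bound on the fold could be given. With signals floored at 20 this difference was -0.34, after normexp background correction -0.13, and the call was lost with the slide as a block (q = 0.0792). It was also lost when either array of 48 h or either of the first 2 arrays of 8 h was left out.

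**Figure D3:**
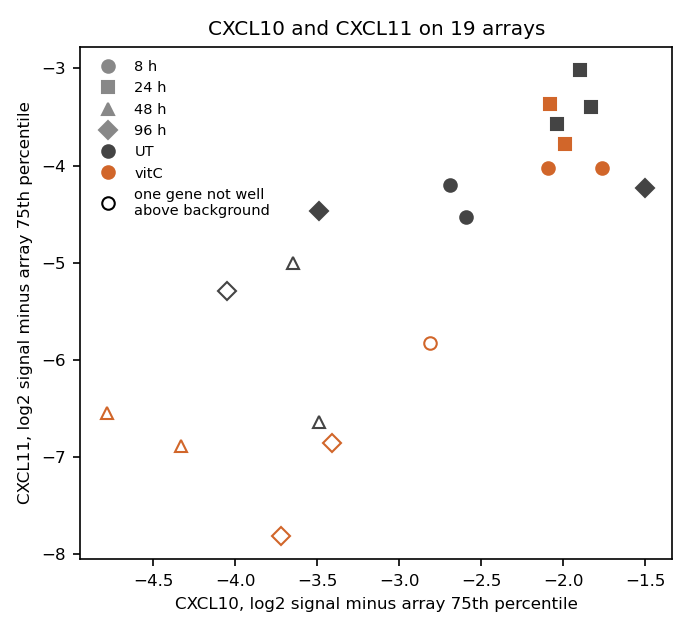
Normalized log2 signal of CXCL11 against that of CXCL10 on the 19 arrays, by time point (symbol) and arm (colour), with open symbols where either gene was not well above background. Both genes were well above background on 11 arrays, and CXCL11 was not on 8, among them all vit C arrays of 48 and 96 h, so the order of the open symbols along the CXCL11 axis carries no information.

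Over the 11 arrays on which both genes were well above background CXCL10 and CXCL11 had a Pearson's r of 0.53, as a description, since the arrays share groups and slides. Over all 19 it was 0.80, which rests in part on CXCL11 signals at background. CXCR3, their receptor, was well above background on all arrays. It differed by 0.99 at 48 h (q = 0.0923) and by 0.05 at 96 h (q = 0.917), and passed at neither. The promoter windows of both ligands are printed because the genes are neighbours with a shared receptor. CXCL10 lies at chr4:76023448-76023747 and CXCL11 at chr4:76036021-76036320, both on the minus strand of GRCh38.p14, and capitals mark matches to the motifs named above.

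CXCL10: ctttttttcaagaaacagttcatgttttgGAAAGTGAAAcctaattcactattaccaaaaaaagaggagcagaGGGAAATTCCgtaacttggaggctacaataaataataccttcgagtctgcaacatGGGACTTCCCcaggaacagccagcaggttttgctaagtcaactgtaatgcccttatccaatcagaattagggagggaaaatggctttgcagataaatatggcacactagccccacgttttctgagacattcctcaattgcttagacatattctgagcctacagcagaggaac
CXCL11: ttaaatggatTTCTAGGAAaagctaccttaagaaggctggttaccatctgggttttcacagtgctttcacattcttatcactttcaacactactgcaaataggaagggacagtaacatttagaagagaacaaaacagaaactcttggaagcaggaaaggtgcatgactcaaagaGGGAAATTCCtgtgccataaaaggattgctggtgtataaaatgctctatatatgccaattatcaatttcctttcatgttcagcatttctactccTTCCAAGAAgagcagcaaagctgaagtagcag

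The CXCL10 window held the interferon element GAAAGTGAAA, from position -221 relative to the start site, and the kappaB matches GGGAAATTCC and GGGACTTCCC, from -177 and -122. The CXCL11 window held the kappaB match GGGAAATTCC, from -76, and the GAS matches TTCTAGGAA and TTCCAAGAA, from -240 and 19. No interferon response element of these letters was in the CXCL11 window. Of 35116 windows of the same length in RefSeq, 3.57% held the interferon element, 11.3% the kappaB consensus, 7.66% the GAS and 6.44% the STAT6 element. Among the other members' windows, that of CCL22 held overlapping kappaB matches and that of CCL13 a GAS match, and those of CCL18 and CXCL14 held none. These matches are letters in a window and not measured binding.

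CXCL14, which is made by many tissues and attracts monocytes and dendritic cells, rose at 96 h and was well above background on every array. In UT cells it was -1.54 and -1.56 at 8 h, -2.13, -2.09 and -2.20 at 24 h, -2.69 and -2.78 at 48 h, and -2.23, -2.14 and -1.35 at 96 h. The signal with vit C was -1.87, -1.80 and -2.27 at 8 h, -2.19 and -2.29 at 24 h, -3.06 and -2.89 at 48 h, and -0.23 and -0.51 at 96 h. Both arms went down to 48 h, and at 96 h both vit C arrays stood above every other array of the series. Before that the change with vit C was -0.44, -0.10 and -0.24, with a limma q of at least 0.505. At 96 h CXCL14 rose by 1.53 (standard error 0.24, limma q = 0.0022), a 2.90-fold higher signal, and by 1.81 without the third UT array of that time. The F test separated its 4 changes (q = 0.0299), but not with the replicate block or when either vit C array of 96 h was left out, among others. The vit C arm rose by 1.61 from 8 to 96 h (q = 0.000197), and in UT cells it fell by 1.19 from 8 to 48 h (q = 0.00986), where 3.4% of all genes fell. That UT call was lost when any of its 4 arrays was left out (q = 0.0524 to 0.071). Between the 2 slides with UT arrays of 96 h CXCL14 differed by 0.49. At 96 h the summed linear signal of 5 fibroblast markers was 1.51 to 3.38 in UT and 5.48 to 6.01 in vit C cells, with 1 of them, DCN, rising by 2.48 (q = 0.00189) after 2.35 at 48 h (q = 0.00824), while a probe of COL3A1, not well above background on any of the 5 arrays of 96 h, passed as lower there (-1.08, q = 0.0348). The median change of these markers at 96 h was 0, COL1A2 was well above background on no array, and the part of this in the rise of CXCL14 was not tested.

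CCL18, a T cell attractant of alternatively activated macrophages, was well above background only on the 2 vit C arrays of 96 h, at -4.87 and -4.78. The UT arrays of that time read -6.33, -6.87 and -5.45, none well above background, and over the arrays of the first 3 time points the signal ranged from -7.34 to -5.5. CCL18 rose with vit C at 96 h (fitted change 1.39, standard error 0.40, limma q = 0.0398). Its bound was 1.14-fold against the lowest signals of any probe well above background on the UT arrays, but with signals floored at 20 the change was 0. This call rests on few readings. It was kept in 6 of 14 other settings, and was lost when either vit C array of 96 h or either of the first 2 UT arrays of that time was left out. Among the settings that lost it were quantile normalization (limma q = 0.0967), dim probes left out (q = 0.0566) and the replicate block (q = 0.06). After normexp background correction the change was -0.37. From 8 to 96 h the vit C arm rose by a fitted 2.10 (q = 0.00138), which was -0.33 after normexp and 0 with the floor.

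CCL13, a ligand of CCR2 and CCR3, was read by probes of unequal brightness. The brighter one was -5.03 and -6.13 in UT cells at 8 h, -4.98, -4.13 and -4.14 at 24 h, -4.91 and -4.06 at 48 h, and -6.07, -3.30 and -5.99 at 96 h. With vit C this probe was -5.24, -5.44 and -6.06 at 8 h, -3.53 and -3.41 at 24 h, -3.40 and -3.44 at 48 h, and -3.33 and -4.65 at 96 h. All 6 vit C arrays from 24 h on were well above background, against 3 of the 8 UT arrays. The arms overlapped at 96 h, and the changes of 0.95 at 24 h, 1.07 at 48 h and 1.13 at 96 h did not pass (limma q = 0.434, 0.57 and 0.301). With the slide as a block the changes at 24 and 48 h were -0.47 and -0.33. The UT arrays of 96 h differed by 1.42 between their 2 slides, the widest gap among the members. With an array of 96 h left out, the change there ran from 0.47 (q = 0.804), without the first vit C array, to 2.04 (q = 0.0296), without the second UT array, and passed in the latter case alone. The dimmer probe passed at 96 h (1.44, standard error 0.44, limma q = 0.0433), with both vit C arrays and no UT array well above background, but it lay so near the detection limit that no fold is given. It also passed as higher over the 4 time points together, where 2.07% of all genes did, and from 8 to 24 h in the vit C arm, where 2.95% did. This probe was well above background on only 3 of the 19 arrays, none of them UT or of 8 and 24 h, so no size is given for either. The brighter probe rose in vit C cells from 8 to 48 h by a fitted 2.16 (q = 0.0442). None of the 8 h arrays was well above background, and the bound was 2.82-fold under the reported processing. With signals floored at 20 this step was 1.12, and after normexp background correction 0.63. Its call was lost when any of its 5 arrays was left out. After normexp background correction the 96 h change of the brighter probe with vit C was -0.31.

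**Figure D4:**
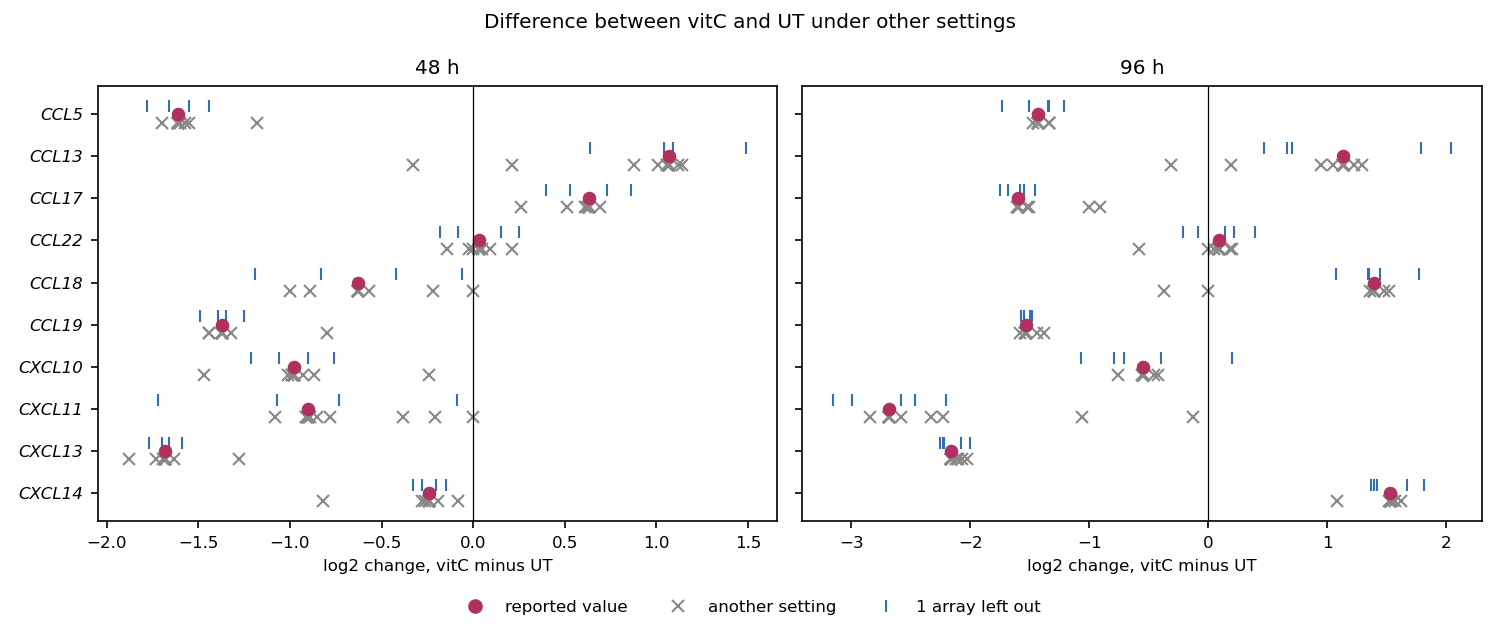
Change with vit C at 48 and 96 h on the log2 scale for each member, as reported (circle), under other settings of the analysis (crosses) and with 1 array left out (ticks). For CXCL13 at 96 h the values run from -2.25 to -2.00, while those of CCL18 go down to -0.37 and those of CXCL11 up to -0.13.

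Other chemokines were examined to show where the members differ from their family. Of 29 other CC and non-neutrophil CXC, XC and CX3C chemokines 25 were on the array. In order of time 22, 21, 21 and 23 of them were tested. None passed at 8 or 96 h, where 0.553% and 12.8% of all genes did. At 24 h 3 rose, where 1.68% of all genes passed, at 48 h 1 rose, where 3.65% passed, and none fell at any time point. The genes that rose at 24 h were CCL1, a ligand of CCR8, by 2.21 (standard error 0.23, limma q = 0.000313), CCL8, a monocyte attractant, by 1.5 (q = 0.0325), and CCL23 by 1.28 (q = 0.0268). CCL23 rose again at 48 h by 1.29 (q = 0.025). In order of time the median change of this list was -0.06, 0.19, 0.05 and -0.07. CCL3 and CCL4, the macrophage inflammatory proteins, differed by -0.81 (q = 0.0201) and -0.67 (q = 0.0329) at 96 h, under the fold threshold.

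Of 21 chemokine receptors 20 were on the array, and in order of time 16, 19, 15 and 17 were tested and 0, 1, 3 and 3 passed. Of all genes 0.553%, 1.68%, 3.65% and 12.8% passed at these time points. CXCR4 fell at 24 h by 1.02 (limma q = 0.018). CXCR7, an atypical receptor that takes up CXCL11 and CXCL12, rose by 1.58 at 48 h (q = 0.00356) and by 1.49 at 96 h (q = 0.00152). CX3CR1, the fractalkine receptor, fell by 1.54 at 48 h (q = 0.0131) and by 1.74 at 96 h (q = 0.0022). CCR7 made up the third call at 48 h, and the third at 96 h was CXCR6 (-1.17, q = 0.0407), well above background on no array of that time.

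**Figure D5:**
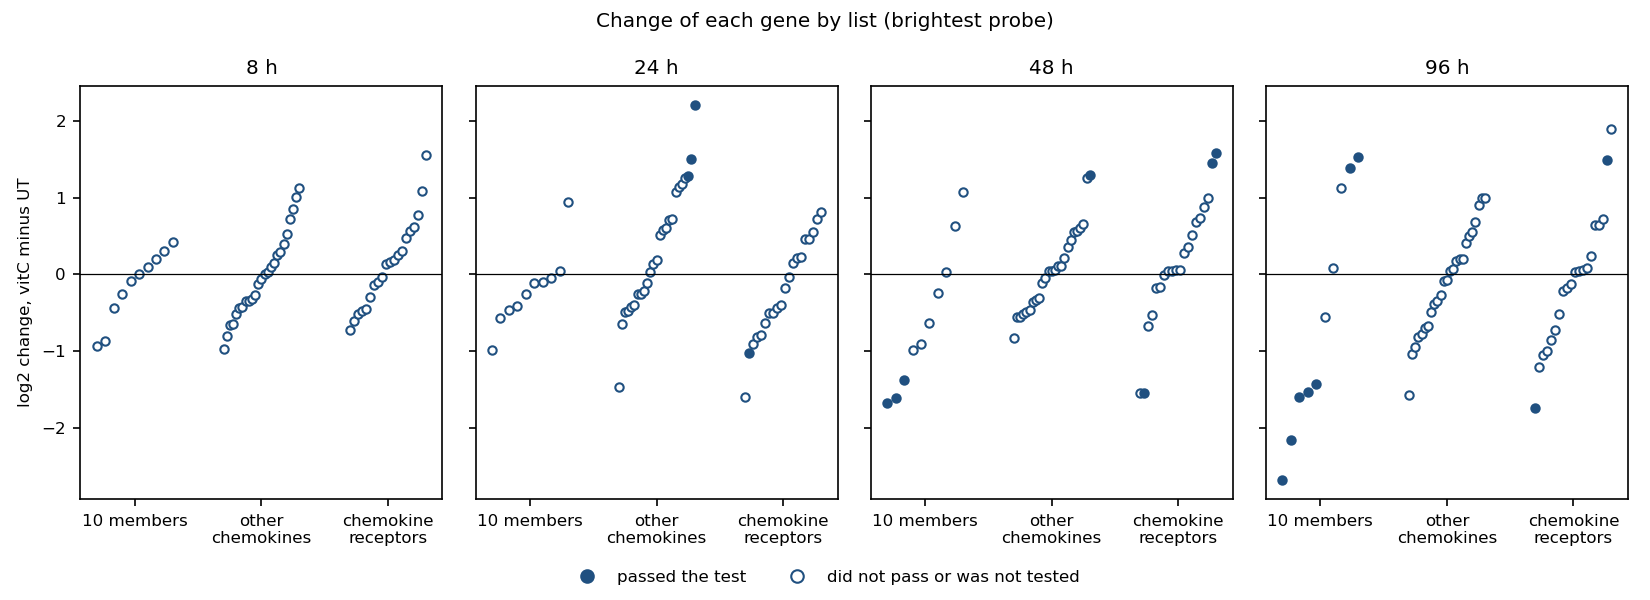
Change with vit C at each time point on the log2 scale for the 10 members, 25 other chemokines and 20 chemokine receptors, 1 symbol per gene in order of size, filled where the brightest probe passed the test. At 24 h the filled symbols among other chemokines are all above 0, and at 48 h those of the members are all below 0.

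Factors that act on chemokine promoters and genes that follow interferon were counted as further members of the pathway. Of 16 regulators on the array, among them the NF-kappaB, IRF and STAT genes, none passed before 96 h, when 1 rose and 1 fell among 15 tested, near the 12.8% of all genes. The gene that rose was IRF8, an interferon-regulatory factor of monocytes and dendritic cells, by 1.27 (standard error 0.34, limma q = 0.0345). The one that fell was IRF4 (-1.49, q = 0.0408), which was well above background on no array of that time. Of 21 interferon-stimulated genes none passed before 96 h, when 2 rose and 1 fell among 18 tested, again near the 12.8% of all genes. GBP1 rose by 1.41 (q = 0.0499) and GBP5 by 1.29 (q = 0.00468), both guanylate-binding proteins, and USP18, which restrains interferon signalling, fell by 1.31 (q = 0.00193). The median change of the interferon-stimulated genes at 96 h was 0.14.

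The 4 members that were well above background on all arrays were set against 17218 other such genes by the course of their signal over the 19 arrays. CXCL13 was most like PCSK5, a proprotein convertase (r = 0.959), and HIST1H2BK, a histone gene (r = 0.951), beside a transcript with no symbol (r = 0.962). CCL5 was most like PCSK6 (r = 0.958), IL4I1 (r = 0.949) and PSCD4 (r = 0.945). CCL19 was most like ITGAM (r = 0.924), the macrophage marker that also fell with vit C at 48 h, TIMM13 (r = 0.924) and IL27RA (r = 0.913). CXCL14 was most like C1orf136 (r = 0.915), RNASE6 (r = 0.912) and DNAJC5B (r = 0.907). Among the members themselves CCL5 and CCL19 had an r of 0.74. CXCL13 and CCL19 had one of 0.07, though both were lower with vit C than in UT cells at 48 and 96 h. These correlations describe arrays that share groups, slides and controls and carry no test.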

How the data were processed

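RNA of PMA-differentiated THP-1 cells was labelled with Cy3 and hybridised to 19 single-colour Agilent arrays, 1 sample each, in 8 groups taken from the labels. Per the file headers, the deposited intensity values were background-subtracted and detrended by Feature Extraction (10.5.1.1). The authors also deposited log2 values scaled to the 75th percentile of each array, which served as an alternative. Control spots and 30 to 79 outlier spots per array, none of a member, were left out, spots of 1 probe were averaged, and log2 intensity minus the 75th percentile of the array was fitted in limma (3.58.1, R 4.3.3) with all 8 groups sharing 1 estimate of spread. Of several probes of a gene the brightest is described, and a gene passed by any probe. A count of genes takes each name once. A bound on a fold sets the brighter group against the lowest signal of any probe well above background on each array of the dim group. It holds under the reported processing only and is not the detection limit of the probe itself. The number of arrays, 2 or 3 a group, limits precision, and p-values measure the spread between cultures of 1 line. On data simulated for the comparison at 48 h, 42% of changes of 1.5 and 74% of changes of 2 on the log2 scale were recovered. Alternatives were the methods' t-test, other normalizations and background corrections, filters, slide and replicate blocks, and each array left out. Keeping outlier spots was added after the data had been seen.

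The members and the lists of related genes and markers were chosen with earlier results of these data known. Named beyond the members were the genes of the lists of other chemokines, receptors, regulators and interferon-stimulated genes whose brightest probe passed and stood well above background throughout a compared group, at most 6 per list and time point, and for each member well above background on all 19 arrays the 3 genes most like it. The members' receptors that are given, CCL3, CCL4, CXCR6, IRF4 and the markers named with values were chosen after their values had been seen. All 10 members carry current RefSeq symbols. RefSeq promoter windows (GRCh38.p14) were found for 8 members.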

Additional observations from a re-analysis of the deposited data

Results flagged for a closer look

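The change with vit C differed between the 4 time points for 3 members in the F test of limma, after Benjamini-Hochberg adjustment over all genes. These were CXCL13 (q = 0.00205), CCL17 (q = 0.0222) and CXCL14 (q = 0.0299). With the replicate block this count was 1, and with an array left out it ran from 1 to 5. CXCL13 passed with the replicate block (q = 0.0109) and whichever array was left out (q = 0.00113 to 0.0148), while CCL17 and CXCL14 did not pass with the replicate block or without either vit C array of 96 h. CCL17 also did not pass after normexp background correction. CXCL13 differed by 0.10 and -0.04 at 8 and 24 h and by -1.68 and -2.16 at 48 and 96 h. CCL17 went from 0.63 at 48 h to -1.60 at 96 h. CXCL14 went from -0.24 at 48 h to 1.53 at 96 h. The vit C arrays of 96 h lay on a slide of their own.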

How the results depend on the processing

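At 48 h the 3 members called became 0 with the methods' t-test, with a fit of that time point alone and with the slide as a block, 2 after normexp, where CCL19 was lost, and 2 to 3 with an array left out. At 96 h the 8 became 0 with the t-test and with that time point alone, 5 after normexp, 4 with signals floored at 20, 5 without dim probes, and 4 to 7 with an array left out. No slide block could be fitted at 96 h. For the mean over time the 4 became 2 under quantile normalization, under the percentile over probes well above background, with the floor and with the mean of a gene's probes, and 1 after normexp, and 2 to 4 with an array left out. Within UT cells, 24 against 8 h went from 1 member to 0 after normexp, 2 with the floor and 0 with the replicate block, 48 against 8 h from 2 to 1 after normexp, and 96 against 8 h from 2 to 1 with the slide as a block. With an array left out these were 0 to 1, 1 to 1 and 1 to 3. Within vit C cells, 24 against 8 h went from 1 to 0 under quantile normalization, normexp, the floor, without dim probes, with opposing probes kept and with the replicate block. The 6 of 48 h became 1 after normexp and the 6 of 96 h became 3 with the floor. With an array left out these were 0 to 1, 4 to 6 and 5 to 7. The F test went from 3 members to 1 with the replicate block, and from 1 to 5 with an array left out. CCL18 turned after normexp, to -0.37 at 96 h and to -0.33 from 8 to 96 h in vit C cells. The cause of these shifts was not tested.

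Samples with the same replicate number did not deviate together (correlations of -0.34 to 0.14), so the numbers were not read as pairs. With the replicate block 0, 0, 3 and 6 members were called in order of time and 4 for the mean. CXCL13 and CCL19 kept their calls at both later times, and CCL17 and CXCL14 theirs at 96 h, whichever array was left out. Signal near background limits what can be said of CCL13, CCL18, CCL22 and CXCL11. CCL17 was dim in vit C cells at 96 h, and its call there was lost after normexp background correction and with signals floored at 20.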
